A study of Mus musculus with 18 samples.

Results

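The genes described here carry the first steps of signalling from the T cell receptor (TCR) and the proteins that hold that signal back, read in 18 microarrays of regulatory T cells (Tregs) from NOD mice. They were taken from a list of 35 genes by symbol, keeping probe sets that carry a single gene symbol. Of these, 34 were found among the 19752 genes of the table, each on 1 probe set, and Lck is not analysed here. They comprise 22 activators, 11 negative regulators, called brakes below, and the phosphatase gene Ptprc, which acts both ways.

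Tregs are CD4+ T cells defined by the transcription factor Foxp3, which hold immune responses in check, and NOD is a mouse strain that develops autoimmune diabetes. Of the arrays, 12 held spleen cells of female mice at 60 days of age that carried Foxp3-eGFP-Cre-ERT2 and Rosa26-YFP, so that a cell expressing Foxp3 under tamoxifen, and its progeny, became YFP+. The perinate-tagged group (GFP+YFP+) had 4 intraperitoneal tamoxifen injections between days 0 and 10, and the adult-tagged group (GFP+YFP+) had 4 between days 35 and 45. The untagged bulk (GFP+YFP-) was sorted after the perinate treatment and after the adult treatment, and these are the untagged perinate-treated and untagged adult-treated groups. The last groups were CD4+ GFP+ thymic Tregs of male NOD mice, taken at 4 days of age for the perinate thymus group or at 5 weeks for the adult thymus group. Each of the 6 groups had 3 arrays. Recombinase and GFP are both driven by Foxp3, all spleen mice received tamoxifen, and the untagged bulk holds the Tregs that were not tagged, whether their Foxp3 was off during treatment or they escaped recombination. Spleen cells were sorted on a FACSAria and thymus cells on a MoFlo, and the mice also differed in reporter. Tamoxifen is listed for the spleen mice only. Tissue, sex, age, sorter, reporter and tamoxifen therefore cannot be told apart between spleen and thymus. The labels do not say whether replicates came from separate animals, so the p-values given here cover only the spread among these arrays, which may be technical.

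In T cells the TCR binds its ligand but has no enzyme of its own. The CD3 and zeta chains beside it carry the motifs that Src family kinases phosphorylate, Zap70 docks there and phosphorylates the membrane scaffold LAT, and LAT with SLP-76 (gene Lcp2) gathers the enzymes that raise calcium, Ras and NF-kappaB signals. Brakes act at each step: Csk with its anchor PAG, the phosphatases PTPN22 and SHP-1 (Ptpn6), the surface inhibitors CD5 and CD6, the ubiquitin ligases c-Cbl and Cbl-b, and the DOK adaptors. In Tregs the strength of this signal in the thymus is known to bear on their selection.

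Levels are log2 of the deposited intensity, and a difference is the first-named group minus the second on that scale, given with its standard error (SE). A gene passed where limma's moderated test, two-sided and adjusted over all genes tested by the Benjamini-Hochberg method, gave p under 0.05. All 34 genes lay above the filter on low values in every fit. Permuting 3 arrays against 3 exactly cannot give 1 gene a p below 0.1, so limma's fit over all genes was used. The number of arrays limits the precision, and in bulk samples fewer cells of a type and less RNA per cell cannot be told apart.

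Foxp3 had group means between 11.95 and 12.37, and the mean of 4 Treg genes lay between 11.49 and 12.09 on every array. Transcripts that the labelled sex should lack read 3.95 to 6.30, and the B cell genes Ms4a1 and Cd79a had group means of 4.96 to 5.75, within that range. Of the other B cell genes on the array, Pax5 had group means of 6.31 to 6.72 and Cd79b stood far above the range, at 8.74 to 9.55. The interquartile range of an array was 2.94 to 3.12 in perinate-tagged and 2.49 to 2.88 in adult-tagged samples, and 3.00 to 3.06 in perinate thymus and 2.08 to 2.82 in adult thymus. Adult thymus replicate 2 stood apart with the lowest value, 2.08. Perinate-tagged replicate 2, labelled female, had Xist at 8.38 and the Y-linked Eif2s3y at 9.79, where the other 11 spleen arrays had 11.86 to 12.41 and 3.95 to 4.90. The count of members past the threshold is also given without perinate-tagged replicate 2 in the tagged comparison and without adult thymus replicate 2 in thymus. Other results, among them the marker calls, are not all given without these arrays.

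**Figure D1:**
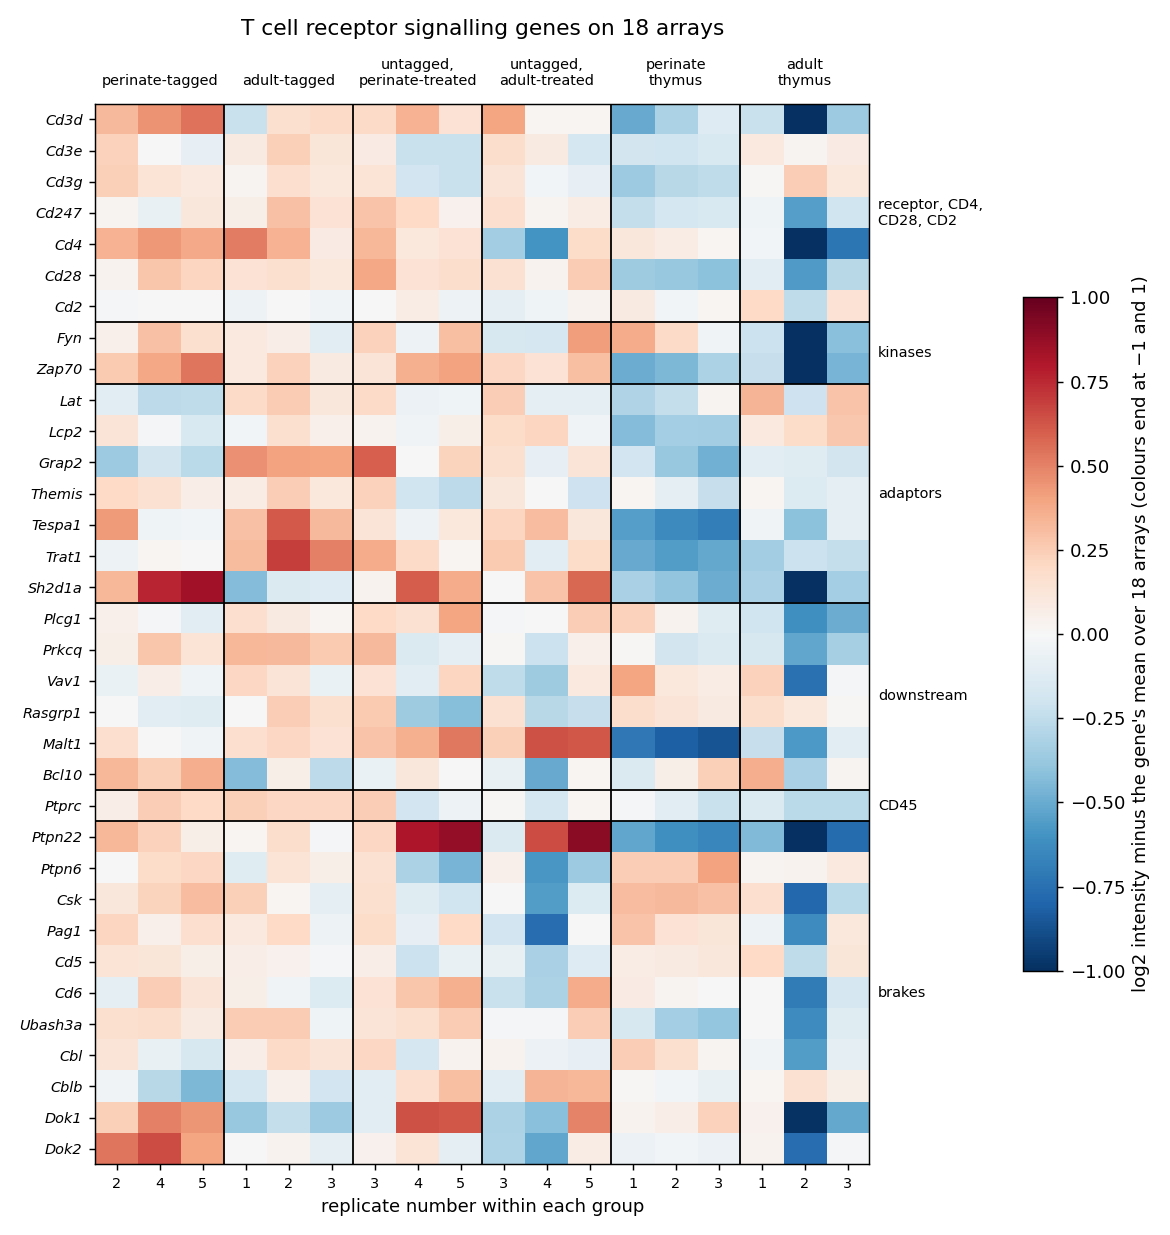
Log2 intensity of each of the 34 genes (rows, by role) minus that gene's mean over 18 arrays, for every array (columns, by group and replicate number). Colours run from -1 (blue) to 1 (red). Adult thymus replicate 2 is the column furthest to blue, with a median of -0.46 over activators and -0.63 over brakes.

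The comparison of perinate-tagged with adult-tagged spleen Tregs asks how Tregs whose Foxp3 was on during the first days of life differ, at the same adult age, from Tregs whose Foxp3 was on at 35 to 45 days. The adult-tagged cells may include ones that arose around birth and were still present, and the groups come from different mice. Of the 34 genes, 7 passed: Sh2d1a, Dok1, Dok2 and Bcl10 were higher and Grap2, Trat1 and Lat were lower in perinate-tagged cells. That is 20.6% of the members, where 19.5% of all genes tested passed. In the higher direction the members' share was 11.8% against 16% of all genes, and in the lower direction 8.82% against 3.5%. All 3 lower genes encode adaptors of the LAT complex or the TCR, while none of the 7 receptor and coreceptor genes passed. Of the 7 adaptor genes, 6 had a negative difference, with a median of -0.29 over the 7, where the median over all genes tested was 0.12. The 6 include Themis, with means of 9.93 in both groups, and Lcp2, at 12.26 against 12.34. The share of negative differences over all genes was not counted.

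The promoters of the 3 lower adaptor genes and of Bcl10, which was higher, are printed because these members moved in the comparison that called most of them. Sh2d1a, Dok1 and Dok2 also passed there, but no promoter window was found for them. Each is the RefSeq window on GRCm38.p6 from 250 bases before to 50 bases after the annotated start, read 5′ to 3′ on the gene's own strand, with capitals marking a match to the ETS core CCGGAAG.
Grap2, chr15:80623233-80623532, plus strand: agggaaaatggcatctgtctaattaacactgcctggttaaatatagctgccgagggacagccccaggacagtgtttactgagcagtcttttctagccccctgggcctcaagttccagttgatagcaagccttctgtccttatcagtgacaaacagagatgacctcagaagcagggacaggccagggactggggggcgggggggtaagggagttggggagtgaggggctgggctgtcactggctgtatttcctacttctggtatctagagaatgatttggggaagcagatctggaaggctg
Lat, chr7:126369519-126369818, minus strand: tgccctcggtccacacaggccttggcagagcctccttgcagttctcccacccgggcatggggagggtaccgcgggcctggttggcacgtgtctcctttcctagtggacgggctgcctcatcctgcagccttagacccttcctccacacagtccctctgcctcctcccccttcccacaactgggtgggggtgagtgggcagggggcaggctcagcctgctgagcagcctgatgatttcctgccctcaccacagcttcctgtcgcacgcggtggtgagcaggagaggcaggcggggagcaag
Trat1, chr16:48772013-48772312, minus strand: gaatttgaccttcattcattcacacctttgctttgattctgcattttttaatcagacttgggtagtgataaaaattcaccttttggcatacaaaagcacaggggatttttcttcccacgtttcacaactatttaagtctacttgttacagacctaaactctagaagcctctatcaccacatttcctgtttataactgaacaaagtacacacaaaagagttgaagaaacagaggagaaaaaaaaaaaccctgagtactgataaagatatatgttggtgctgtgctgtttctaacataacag
Bcl10, chr3:145924012-145924311, plus strand: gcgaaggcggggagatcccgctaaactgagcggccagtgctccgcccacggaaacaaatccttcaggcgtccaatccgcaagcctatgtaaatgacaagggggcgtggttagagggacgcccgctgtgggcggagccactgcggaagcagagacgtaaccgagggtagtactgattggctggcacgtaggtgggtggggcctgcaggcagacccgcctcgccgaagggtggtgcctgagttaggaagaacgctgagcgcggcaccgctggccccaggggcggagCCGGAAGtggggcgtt
The ETS core and the RUNX letters TGTGGTT, 2 motifs that do not overlap, were searched on both strands in the windows read for 24 members. Any members on 1 chromosome were left out of this search, whether or not they had a window. The ETS core was found in 1 of 24 (4.17%), the Bcl10 window, 34 bases after the start, against 8.86% of 32851 promoters of all genes. The RUNX letters were found in 1 of 24, a Ptpn22 window, 7 bases after the start on the opposite strand, against 5.27%. The members' shares count genes with a match in any of their windows, while the shares of all promoters count single windows, so the units differ. The windows of Grap2, Lat and Trat1 held neither string of letters.

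Among the receptor genes, Cd3e, a signalling chain of the TCR complex, was at 13.18, 12.94 and 12.87 in perinate-tagged samples, against 13.04, 13.18 and 13.07 in adult-tagged samples. The groups overlapped, and the difference of -0.10 had a 95% interval of -0.39 to 0.19. Cd3d, another CD3 chain, had 10.60, 10.73 and 10.82 in perinate-tagged samples, against 10.05, 10.44 and 10.47 in adult-tagged samples. Every perinate-tagged value lay above every adult-tagged one, but the difference of 0.39 ± 0.15 did not pass (adjusted p = 0.0691). The other receptor genes differed by -0.15 to 0.08: Cd247, the zeta chain, Cd3g, the coreceptor Cd4, the costimulatory receptor Cd28, and the adhesion receptor Cd2. Cd2 was the steadiest gene of the list, with 6 group means that spanned 0.06.

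Of the kinases, Zap70, the kinase that phosphorylates LAT, was at 10.49, 10.62 and 10.77 in perinate-tagged samples, against 10.34, 10.47 and 10.32 in adult-tagged samples. The groups did not overlap, yet the difference of 0.25 ± 0.12 did not pass (adjusted p = 0.153). Fyn, a Src family kinase of the TCR complex, differed by 0.15 ± 0.16.

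Grap2 encodes GADS, the adaptor that links SLP-76 to phosphorylated LAT. Its levels were 10.40, 10.57 and 10.49 in perinate-tagged samples, against 11.22, 11.16 and 11.16 in adult-tagged samples. All 3 perinate-tagged values lay below all adult-tagged values, by more than the spread inside either group. The difference was -0.69 ± 0.14, or 1.62-fold lower in perinate-tagged cells (adjusted p = 0.00431).

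Trat1, which encodes the TRIM adaptor that associates with the TCR, was at 9.83, 9.90 and 9.89 in perinate-tagged samples, against 10.21, 10.58 and 10.39 in adult-tagged samples. The groups did not overlap, and the difference was -0.52 ± 0.14 (adjusted p = 0.0193). Lat, the scaffold itself, was at 11.42, 11.27 and 11.28 in perinate-tagged samples, against 11.72, 11.79 and 11.64 in adult-tagged samples. These groups too were apart, with a smaller difference of -0.39 ± 0.13 (adjusted p = 0.043). Lcp2, the SLP-76 gene that GADS binds, differed by -0.08 ± 0.12 and did not pass, nor did Tespa1, an adaptor known from thymocyte selection, at -0.29 ± 0.15. Themis, another adaptor known from thymocyte selection, had the same mean in both groups to within 0.01.

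Sh2d1a went the other way. It encodes SAP, the small adaptor of SLAM family receptors that can recruit Fyn. Its levels were 9.44, 9.87 and 9.94 in perinate-tagged samples, against 8.67, 8.96 and 8.98 in adult-tagged samples. The groups were apart, and the difference of 0.88 ± 0.19 was 1.84-fold (adjusted p = 0.00481), the largest of the list in this comparison.

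Downstream of LAT, Bcl10, which works with MALT1 in activating NF-kappaB, was at 10.23, 10.14 and 10.26 in perinate-tagged samples, against 9.47, 9.96 and 9.64 in adult-tagged samples. The perinate-tagged values were all higher, and the difference was 0.52 ± 0.15 (adjusted p = 0.0298). Malt1, the protease that BCL10 binds, differed by -0.13 ± 0.13 and did not pass. The remaining downstream genes lay between -0.21 and -0.10 and did not pass either: Plcg1 (phospholipase C gamma 1), Prkcq (protein kinase C theta), Vav1 and Rasgrp1 (both guanine nucleotide exchange factors).

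Among the brakes, 2 of 11 passed (18.2%, against 19.5% of all genes), both DOK adaptors, which bind RasGAP and damp Ras signalling. Dok2 was at 9.40, 9.52 and 9.26 in perinate-tagged samples, against 8.87, 8.90 and 8.76 in adult-tagged samples. The groups were apart, with a difference of 0.55 ± 0.15 (adjusted p = 0.0177). Dok1 was at 7.55, 7.82 and 7.76 in perinate-tagged samples, against 6.94, 7.08 and 6.96 in adult-tagged samples, a difference of 0.72 ± 0.23 (adjusted p = 0.0378). These levels are close to 7.05, the median of all deposited values at which the filter was set.

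The brakes that act on the kinases themselves stayed within their spread. Ptpn22, the phosphatase of Src family kinases and Zap70, was at 11.04, 10.93 and 10.76 in perinate-tagged samples, against 10.72, 10.88 and 10.68 in adult-tagged samples. Ptpn6 was at 9.67, 9.86 and 9.88 in perinate-tagged samples, against 9.55, 9.80 and 9.73 in adult-tagged samples. The groups overlapped for both genes, with 95% intervals of -0.34 to 0.63 and -0.27 to 0.49.

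Cd5, a surface inhibitor whose level is known to follow TCR signal strength in thymocytes, was at 12.22, 12.20 and 12.14 in perinate-tagged samples, against 12.15, 12.13 and 12.08 in adult-tagged samples. Ubash3a, a suppressor of TCR signalling, was at 10.37, 10.39 and 10.31 in perinate-tagged samples, against 10.47, 10.47 and 10.17 in adult-tagged samples. The differences were 0.07 (95% interval -0.18 to 0.32) and -0.01 (-0.28 to 0.25), neither of which passed. Csk, Pag1, Cd6, Cbl and Cblb lay between -0.16 and 0.16, and Ptprc, the CD45 phosphatase that can both activate and restrain Src family kinases, differed by -0.05 ± 0.13.

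**Figure D2:**
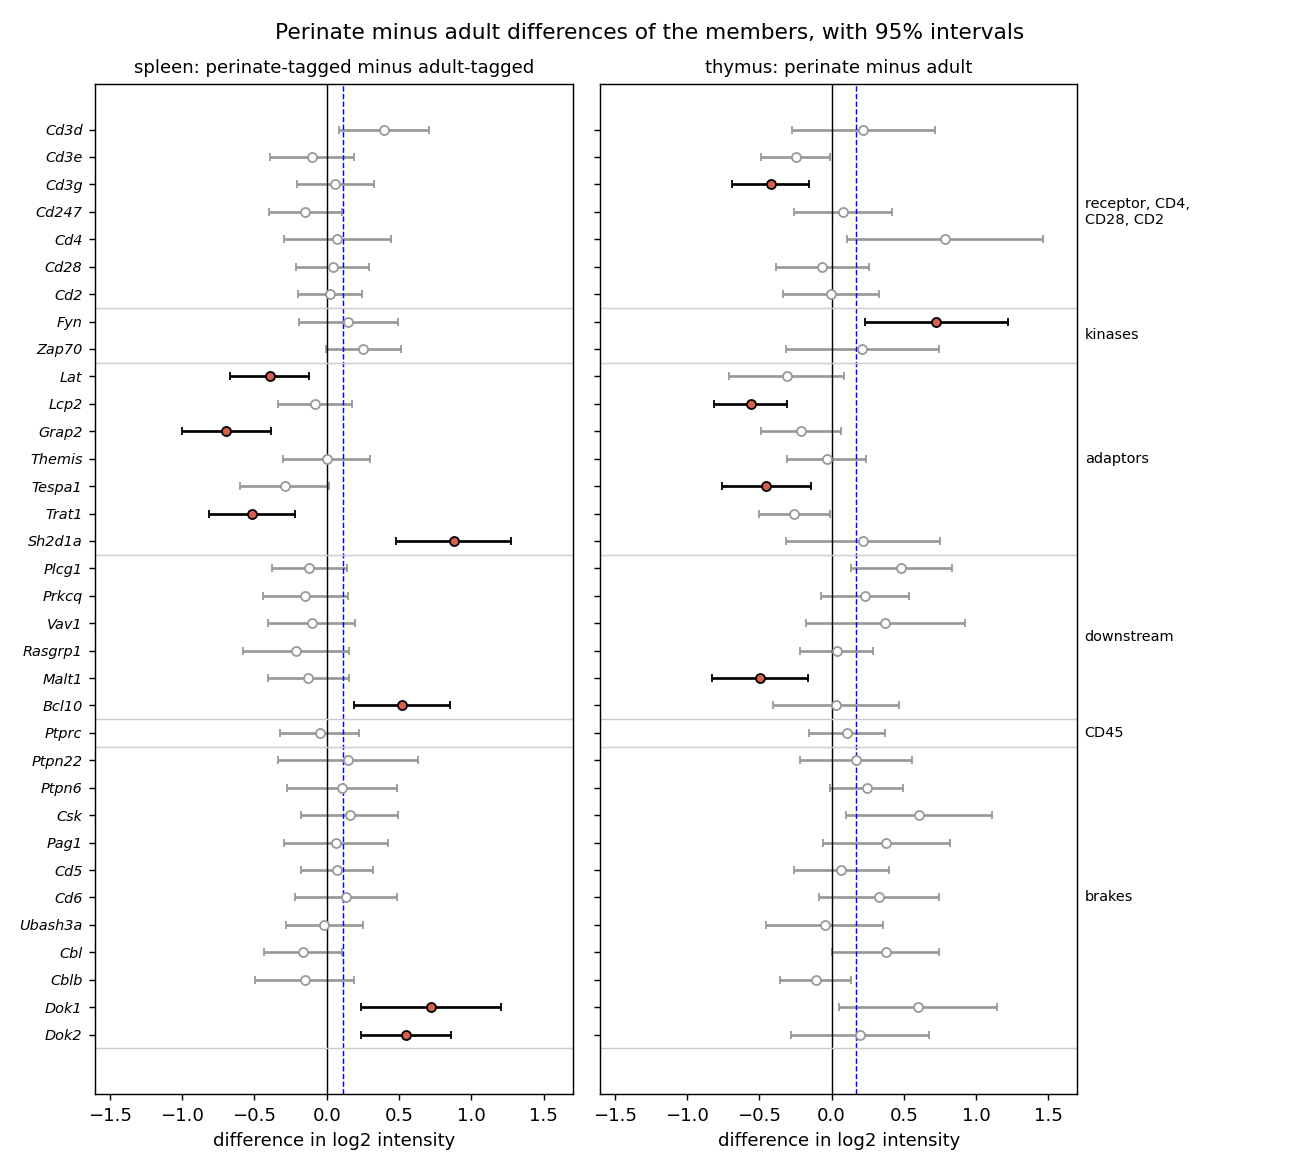
Difference in log2 intensity of each of the 34 genes, perinate-tagged minus adult-tagged spleen (left) and perinate minus adult thymus (right), with 95% intervals from limma and n = 3 per group. Filled points passed, 7 on the left and 5 on the right, the solid line is 0 and the dashed line is the median over all genes tested, 0.12 and 0.17. Grap2, Trat1 and Lat lie left of 0 in spleen, and Lcp2, Malt1, Tespa1 and Cd3g do so in thymus.

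The median difference was -0.09 over the 22 activators and 0.11 over the 11 brakes, and 0.12 over all genes tested. With quantile normalization these medians were -0.219, -0.017 and -0.016, and with arrays centred on their medians they were -0.001, 0.196 and 0.205. The split of the members that passed moved with the scaling: 2 were higher and 3 lower with quantile normalization, where Bcl10 and Dok2 lost their call, and 5 higher and 1 lower with centring, where Trat1 and Lat lost theirs and Cd3d passed. Each of the 7 kept its direction under both. Shares of all genes in each direction under these scalings are not given. Whether the members' share of lower genes still exceeds that of all genes is therefore not shown. The groups did not overlap for 9 members (26.5%), against 45.8% of all genes, 6 of them higher against 33.2% of all genes and 3 lower against 12.7%. Grap2 and Sh2d1a passed in all 6 fits that left out 1 of the 6 tagged arrays. Leaving out adult-tagged replicate 3 or perinate-tagged replicate 4 left 2 members past the threshold. Leaving out adult-tagged replicate 1 or perinate-tagged replicate 5 left 3, and adult-tagged replicate 2, 4. Without perinate-tagged replicate 2, whose sex genes go against its label, the count was 7, with Tespa1 at -0.45 (adjusted p = 0.0402) in and Bcl10 out. With each array's interquartile range as a covariate, Trat1 alone passed, at -0.71 (adjusted p = 0.0374). In that fit Grap2 was at -0.72 (adjusted p = 0.0635), Lat at -0.35 and Sh2d1a at 0.54, while Dok2 was at 0.30, Dok1 at 0.16 and Bcl10 at 0.15. The interquartile ranges of the tagged groups do not overlap, so the covariate and the group cannot be fully told apart.

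Proliferation genes also differed between these groups. The mean of 7 proliferation genes was 10.01 to 10.14 in perinate-tagged samples and 7.06 to 7.93 in adult-tagged samples, and all 7 passed as higher. Of the markers of other cells, Cd79b (a B cell receptor chain, 9.55 against 8.89) and Fcer1g (a myeloid Fc receptor chain, 7.17 against 6.53) passed, while the mean of the 4 B cell genes was 6.58 to 6.70 in perinate-tagged and 6.48 to 6.51 in adult-tagged samples. The mean of the 6 myeloid genes was 6.08 to 6.42 in perinate-tagged and 6.01 to 6.14 in adult-tagged samples, and 1 gene of each list, Cd79b and Fcer1g, lay above the filter and was tested. Of the other lists 1 of 3 NK cell genes (Eomes) and 1 of 2 cytotoxic T cell genes (Cd8b1) were tested and did not pass, and 0 of 5 immature thymocyte genes were tested. Of 5 stress and handling genes, Fos (1.44) and Ier3 (1.09) were higher, and of 4 Treg genes Il2ra was lower (-0.39). Their part in the 7 results above was not tested.

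In the untagged bulk, the same perinate against adult treatment gave 0 of 34 members past the threshold by limma, and 0% of all 10350 genes, of which 380 had an unadjusted p under 0.05. Grap2 was at 11.36, 10.76 and 10.98 in untagged perinate-treated samples, against 10.92, 10.68 and 10.89 in untagged adult-treated samples. Sh2d1a was at 9.14, 9.72 and 9.48 in untagged perinate-treated samples, against 9.11, 9.39 and 9.68 in untagged adult-treated samples. The groups overlapped for both genes and for all other members, where 4.81% of all genes had groups apart, 3.35% higher and 1.46% lower. Member differences lay between -0.15 (Cd3e) and 0.46 (Dok1), with Cd4 at 0.45 (95% interval 0.08 to 0.82), and the median was 0.08 over activators, 0.16 over brakes and 0.06 over all genes. The difference between the tagged and the untagged difference passed for 1 member, Grap2, at -0.90 ± 0.20 (adjusted p = 0.0187). It is 1 of 34 (2.94%), against 4.89% of all genes, of which 4.29% were higher and 0.599% lower. Over the fits that left out 1 array its value lay between -1.03 and -0.73, and the call was lost without adult-tagged replicate 1 (-0.88) or without perinate-tagged replicate 5 (-0.90). With the replicate number as a block it was -0.76 and did not pass (adjusted p = 0.105). All 7 proliferation genes (2.28 to 2.87), Cd79b (0.77), Fos (1.44) and Ier3 (0.97) passed as higher in the same comparison, and their part in the Grap2 result was not tested. For Sh2d1a (0.82, adjusted p = 0.0941), Trat1 (-0.60, adjusted p = 0.105) and Lat (-0.41, adjusted p = 0.241) it did not pass, though Sh2d1a passed without perinate-tagged replicate 2 (0.98) and without untagged adult-treated replicate 3 (0.97).

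The brakes Ptpn22 and Ptpn6 varied more within the untagged groups than between them. Ptpn22 was at 10.91, 11.51 and 11.58 in untagged perinate-treated replicates 3, 4 and 5, against 10.55, 11.35 and 11.60 in the untagged adult-treated replicates of those numbers. Ptpn6 was at 9.82, 9.35 and 9.21 in the untagged perinate-treated replicates, against 9.72, 9.09 and 9.31 in the untagged adult-treated ones. In both treatments replicate 3 had the lowest Ptpn22 and the highest Ptpn6 of its group. With the replicate number as a block over the 6 untagged arrays, 0 members passed, and 37 of all genes did.

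**Figure D3:**
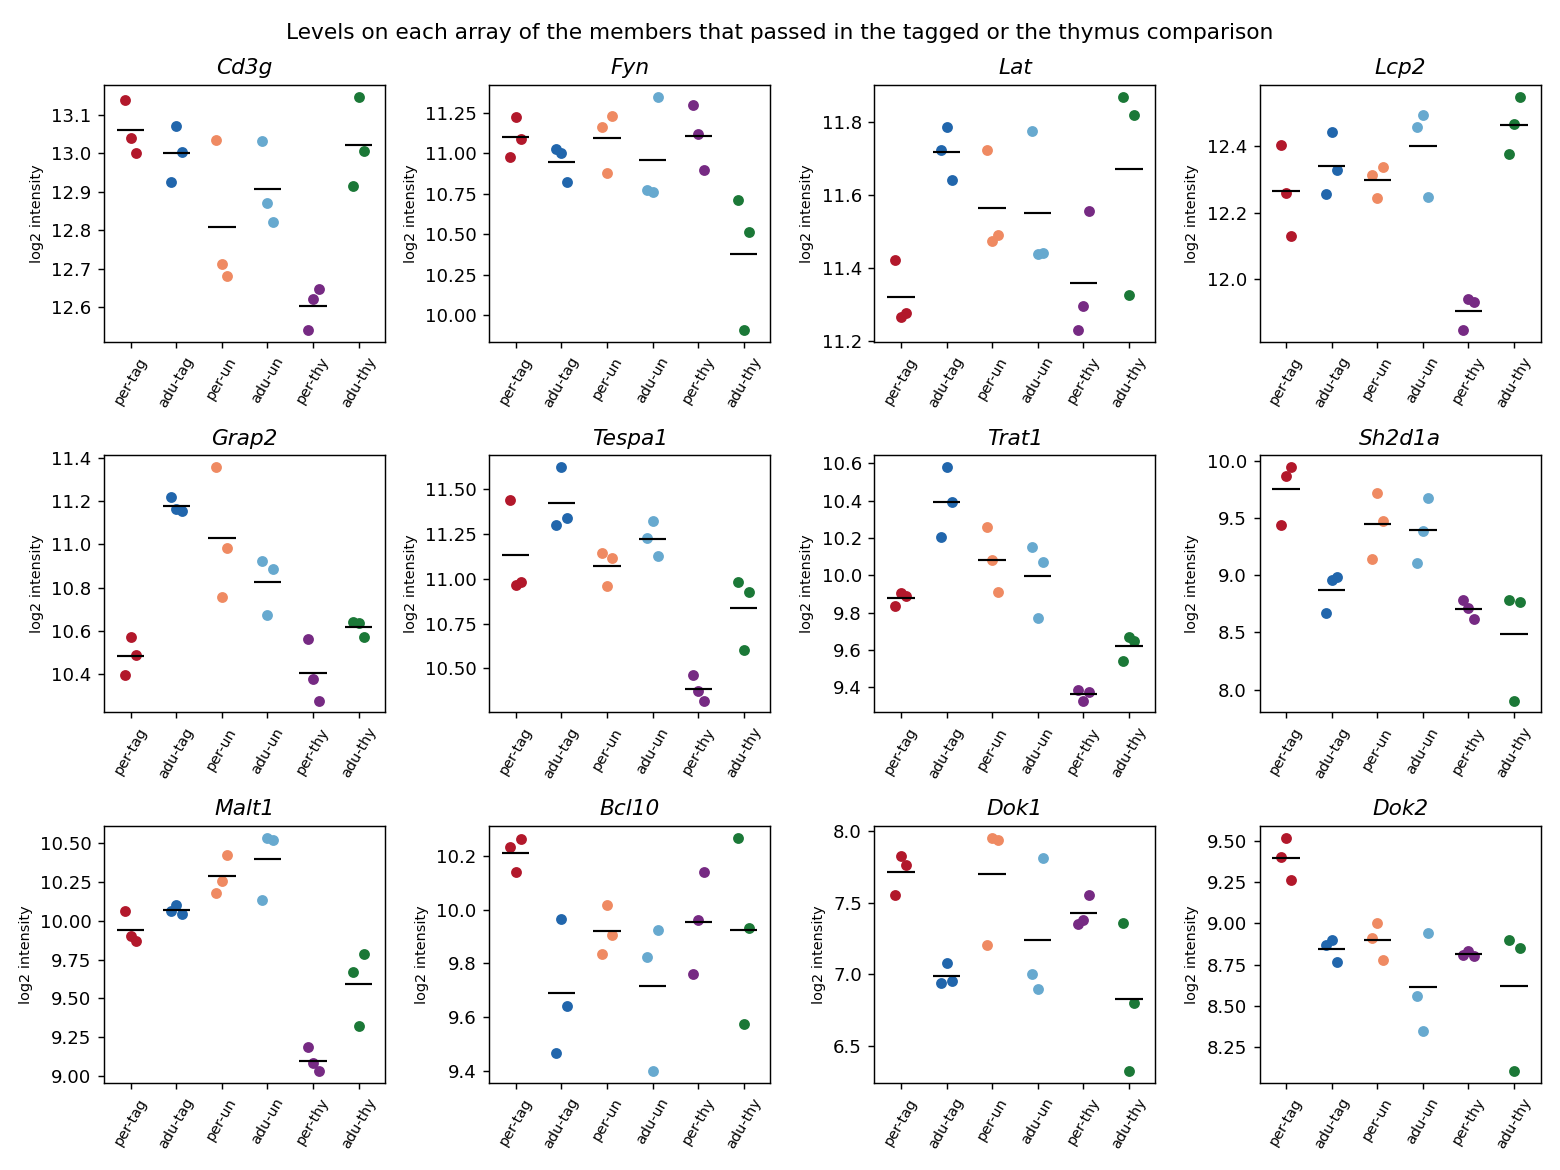
Log2 intensity on every array (points) and group mean (black line) of the 12 genes that passed in the tagged spleen or the thymus comparison, 1 panel per gene, each with its own axis that does not start at 0. Groups run from left to right as perinate-tagged, adult-tagged, untagged perinate-treated, untagged adult-treated, perinate thymus and adult thymus. For Grap2 the perinate-tagged values of 10.40 to 10.57 lie below all 9 other spleen values.

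Tagged cells were also set against the untagged bulk of the same treatment. After perinate tamoxifen, Grap2 alone passed, at -0.55 ± 0.14 (adjusted p = 0.0329), 1 of 34 members (2.94%) against 7.34% of all genes, 5.49% higher and 1.86% lower. Its 3 perinate-tagged values lay below all 3 untagged perinate-treated values, and the call held without untagged perinate-treated replicate 4 (-0.69) and was lost when any of the other 5 arrays was left out (-0.59 to -0.38). With the replicate number as a block, Grap2 was at -0.48 and did not pass (adjusted p = 0.0616), while Ptpn22 (-0.61) and Cblb (-0.53) did. Dok2 differed by 0.50 ± 0.15 and did not pass (adjusted p = 0.053). All 7 proliferation genes (Mki67 at 1.33), Cd79b (0.81) and Ier3 (1.02) passed as higher in perinate-tagged cells, and their part in the Grap2 result was not tested. Groups were apart for 8 members (23.5%), against 32% of all genes: 3 higher (Cd4, Bcl10, Dok2) against 19.7%, and 5 lower (Lat, Grap2, Trat1, Plcg1, Malt1) against 12.3%.

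After adult tamoxifen 0 of 34 members passed by limma, against 0.271% of all genes, of which 1699 had an unadjusted p under 0.05. The members furthest apart were Cd4, at 12.22, 12.06 and 11.79 in adult-tagged samples against 11.36, 11.11 and 11.89 in untagged adult-treated samples, and Sh2d1a, with a difference of -0.52 ± 0.19. The Cd4 groups overlapped, and the differences had adjusted p of 0.16 and 0.21. Without untagged adult-treated replicate 3, Sh2d1a (-0.66), Malt1 (-0.46) and Ptpn22 (-0.72) passed. Groups were apart for 8 members, 23.5%, against 17% of all genes. Of these 6 were higher (Grap2, Trat1, Prkcq, Ptprc, Cd5, Cbl) against 6.7% of all genes, and 2 lower (Sh2d1a, Malt1) against 10.3%. Of the 7 proliferation genes 6 passed as lower in adult-tagged cells (-1.53 to -1.11). The comparisons of tagged with untagged cells and of perinate with adult share arrays, so the Grap2 values above are not independent of each other.

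In thymus, CD4+ GFP+ Tregs of perinate mice were compared with those of adult mice. Sorting on CD4 and GFP does not tell newly made cells from others present in the organ. Fyn was higher in perinate thymus, and Lcp2, Malt1, Tespa1 and Cd3g were lower, 5 of 34 members (14.7%), where 24.3% of all genes passed. In the lower direction the share was 11.8% of members against 5.84% of all genes, and in the higher direction 2.94% against 18.5%. None of the 11 brakes passed.

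Lcp2 encodes SLP-76, the adaptor that joins GADS and carries VAV1 and the Tec kinases to LAT. It was at 11.85, 11.94 and 11.93 in perinate thymus, against 12.38, 12.47 and 12.55 in adult thymus. The groups were apart, with a narrow spread on both sides. The difference was -0.56 ± 0.11 (adjusted p = 0.0116), or 1.47-fold lower in perinate thymus.

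Malt1 was at 9.19, 9.08 and 9.03 in perinate thymus, against 9.67, 9.32 and 9.78 in adult thymus, a difference of -0.49 ± 0.14 (adjusted p = 0.0419). Tespa1 was at 10.46, 10.38 and 10.32 in perinate thymus, against 10.98, 10.60 and 10.92 in adult thymus, a difference of -0.45 ± 0.13 (adjusted p = 0.0445). Both genes had all perinate values under all adult values, and in both the adult value nearest to them was that of replicate 2.

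Cd3g, the gamma chain of CD3, was at 12.54, 12.62 and 12.65 in perinate thymus, against 12.91, 13.15 and 13.01 in adult thymus, a difference of -0.42 ± 0.12 (adjusted p = 0.0339). The groups were apart. Its neighbours on chromosome 9, Cd3d and Cd3e, differed by 0.22 ± 0.22 and -0.25 ± 0.10 and did not pass.

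Fyn was at 11.30, 11.12 and 10.89 in perinate thymus, against 10.71, 9.91 and 10.52 in adult thymus. All perinate values were higher, and adult replicate 2 was the lowest of all. The difference was 0.73 ± 0.21 (adjusted p = 0.0435), and 0.49 (adjusted p = 0.0111) without that array.

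Zap70 was at 9.74, 9.79 and 9.92 in perinate thymus, against 10.00, 9.04 and 9.77 in adult thymus, and Lat was at 11.23, 11.30 and 11.56 in perinate thymus, against 11.87, 11.33 and 11.82 in adult thymus. The groups overlapped for both, and neither gene passed (0.21 ± 0.23 and -0.31 ± 0.17). Cd4 was at 11.82, 11.78 and 11.73 in perinate thymus, against 11.68, 10.32 and 10.99 in adult thymus, a difference of 0.78 ± 0.30 that did not pass (adjusted p = 0.0823) although the groups were apart. Plcg1 (0.48, adjusted p = 0.0508) and Csk (0.60, adjusted p = 0.0754) also missed the threshold.

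The median difference of the 11 brakes was 0.24, that of the 22 activators 0.01 and that of all genes 0.17. With quantile normalization the medians were 0.03, -0.25 and 0.01, and with centring they were 0.36, 0.13 and 0.29. With quantile normalization 7 members passed, all lower (Cd3e, Cd3g, Lat, Lcp2, Tespa1, Trat1 and Malt1), and Fyn lost its call. With centring 2 were higher (Fyn and Plcg1) and 1 lower (Lcp2). Shares of all genes in each direction under these scalings are not given here either. Of the brakes that act on the receptor and kinases, Ptpn22 was at 10.18, 10.09 and 10.05 in perinate thymus, against 10.26, 9.62 and 9.93 in adult thymus. Ptpn6 was at 9.92, 9.92 and 10.07 in perinate thymus, against 9.70, 9.71 and 9.77 in adult thymus. Ptpn6 had all its perinate values on top, with a difference of 0.24 ± 0.11 that did not pass (adjusted p = 0.125), and the Ptpn22 groups overlapped.

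Cd5 was at 12.16, 12.18 and 12.20 in perinate thymus, against 12.29, 11.83 and 12.21 in adult thymus, and Ubash3a was at 10.06, 9.87 and 9.83 in perinate thymus, against 10.21, 9.59 and 10.10 in adult thymus. Their 95% intervals, -0.26 to 0.40 and -0.45 to 0.36, take in changes of either sign. Groups were apart for 16 members (47.1%), against 53.6% of all genes, 8 of them higher against 36.9% and 8 lower against 16.7%.

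The thymus count depended on single arrays. It was 9 without adult thymus replicate 2, where Cd3e (-0.27), Lat (-0.48), Plcg1 (0.40) and Csk (0.36) joined the other 5, and 7 without adult replicate 1, where Cd4 (1.13), Plcg1 (0.60), Csk (0.83) and Dok1 (0.86) joined Cd3g, Fyn and Lcp2. It was 0 without adult replicate 3 or without any 1 of the 3 perinate arrays. With each array's interquartile range as a covariate the count was 6. Fyn (0.21, adjusted p = 0.401) and Cd3g (-0.28, adjusted p = 0.117) lost their call, Lcp2 (-0.54), Tespa1 (-0.70) and Malt1 (-0.76) kept theirs, and Lat (-0.70) and the brake Ubash3a (-0.46) passed. Zap70 turned its direction and passed (-0.425, adjusted p = 0.0272). The interquartile ranges of the thymus groups do not overlap, and adult replicate 2 stood apart in them. The covariate and the group therefore cannot be fully told apart in that fit.

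Markers differed between the thymus groups as well. The mean of the 7 proliferation genes was 9.70 to 9.93 in perinate thymus and 7.83 to 8.34 in adult thymus, and all 7 passed. Cd8a, which marks cytotoxic and double-positive T cells, averaged 9.75 in perinate thymus and 10.36 in adult thymus, against group means of 6.52 to 6.83 in spleen, and passed as lower in perinate thymus. The mean of the 5 immature thymocyte genes was 6.29 to 6.33 in perinate thymus and 6.29 to 6.59 in adult thymus. Among these Cd24a passed as higher (9.30 against 8.56 in adult thymus), and Rag1, Rag2, Dntt and Ptcra had group means of 4.08 to 6.67. The mean of the 4 B cell genes was 6.38 to 6.54 in perinate thymus and 6.76 to 6.79 in adult thymus, and that of the 6 myeloid genes 5.87 to 6.03 in perinate thymus and 6.10 to 6.47 in adult thymus, ranges that do not overlap for either list. Of these genes Cd79b alone was tested, and it did not pass (0.25). Among stress genes Fos was higher (1.67) and Hspa1a lower (-0.57). Their part in the results above was not tested.

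**Figure D4:**
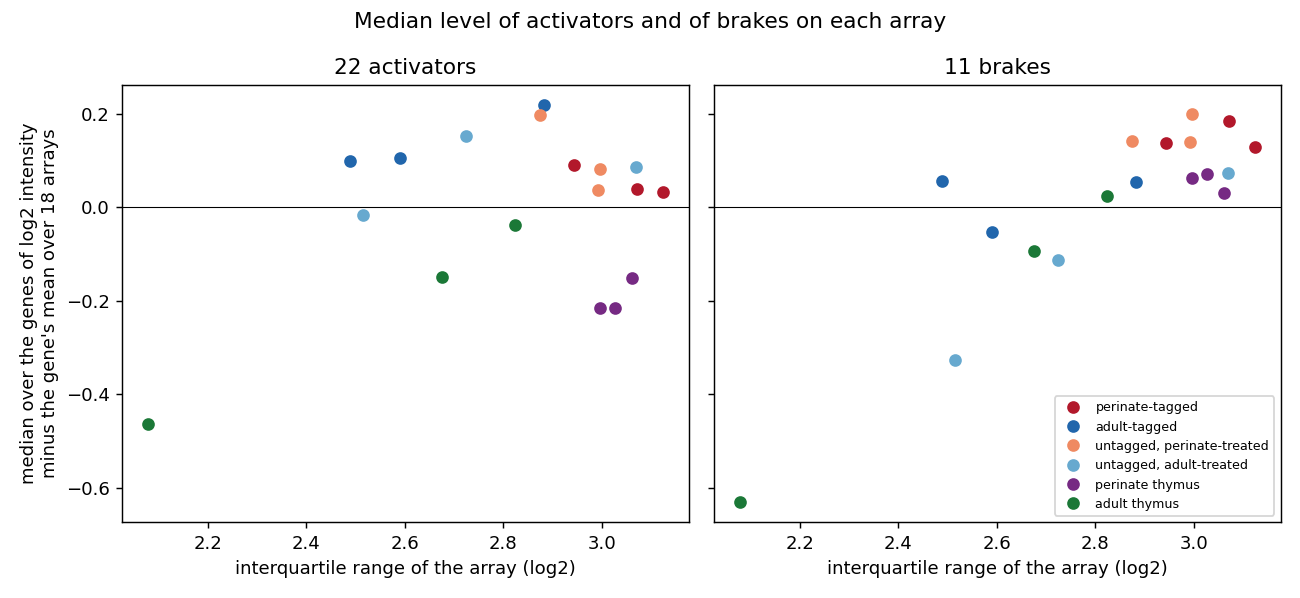
Median over the 22 activators (left) and the 11 brakes (right) of the log2 intensity minus each gene's mean over 18 arrays, plotted against the interquartile range of the array, 1 point per array coloured by group. Adult thymus replicate 2 is the point at 2.08, with -0.46 for activators and -0.63 for brakes, and the perinate thymus arrays lie at -0.22 to -0.15 for activators and 0.03 to 0.07 for brakes.

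The spleen difference (perinate-tagged minus adult-tagged) minus the thymus difference (perinate minus adult) passed for 0 of 34 members by limma, against 6.46% of all genes, 3.89% higher and 2.56% lower, and 2395 of all genes had an unadjusted p under 0.05. The lowest adjusted p were those of Plcg1 (-0.60, adjusted p = 0.0602), Lcp2 (0.48, adjusted p = 0.0736) and Cd3g (0.48, adjusted p = 0.0931). Plcg1 and Cd4 passed without adult thymus replicate 1 (-0.72 and -1.05) and Sh2d1a without adult thymus replicate 2 (0.95).

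Across the 6 groups, 5 members had all 12 spleen arrays above all 6 thymus arrays, against 1.71% of all genes: Cd28, Zap70, Trat1, Malt1 and Ptpn22. Zap70 was at 10.32 to 10.77 in spleen and 9.04 to 10.00 in thymus, and Malt1 at 9.87 to 10.53 in spleen and 9.03 to 9.78 in thymus. Ptpn22 was at 10.55 to 11.60 in spleen and 9.62 to 10.26 in thymus. No member had the reverse pattern, against 2.05% of all genes. Tissue, sex, age, sorter, reporter and tamoxifen differ together between these arrays and cannot be told apart.

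The 6 group means of a member spanned a median of 0.58, against 0.56 over all 10889 genes in the fit of 18 arrays. For 7 members (20.6%, against 13.7% of all genes) they spanned 1 or more: Ptpn22 (1.40), Malt1 (1.30), Sh2d1a (1.26), Cd4 (1.10), Tespa1 (1.04), Trat1 (1.03) and Zap70 (1.02). The lowest group was adult thymus for Ptpn22, Sh2d1a, Cd4 and Zap70, with standard deviations there of 0.68 for Cd4 and 0.50 for Zap70. These spans include adult thymus replicate 2, the array that stood apart, and were not computed without it. The CD3 chains other than Cd3d spanned 0.33 to 0.46, and the inhibitor Cd5 0.28.

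Other genes of the pathway were counted from a list of 58, of which 51 were on the array and 50 were tested. Among tagged spleen cells 7 were higher and 1 lower, 16% of those tested against 19.5% of all genes. The highest was Nck2, an adaptor to the actin skeleton, at 8.88, 9.35 and 9.26 in perinate-tagged samples against 8.03, 8.13 and 8.02 in adult-tagged samples. The groups were far apart, with a difference of 1.11 ± 0.18 (adjusted p = 0.000683). It was followed by the phosphatase of ERK Dusp5 (0.89), the Ubash3a relative Ubash3b (0.79), the Ras adaptor Grb2 (0.70), the ERK-binding phosphatase Ptpn7 (0.63) and the inhibitory adaptor Lax1 (0.63). The lower gene was Txk (-0.66), a Tec family kinase of T cells.

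Of the 24 tested genes that the list counts as negative regulators, 4 were higher and 0 lower among tagged cells, where 16% of all genes were higher and 3.5% lower. In thymus 6 of 24 were higher and 0 lower, where 18.5% of all genes were higher and 5.84% lower. Dusp5 was at 10.50, 10.51 and 10.54 in perinate thymus, against 9.84, 9.22 and 9.34 in adult thymus, a difference of 1.05 ± 0.17 (adjusted p = 0.00528). Its groups were wide apart in thymus as in spleen. The others named were the ERK phosphatase Dusp6 (1.00), the Ras pathway inhibitor Spry1 (0.79), the MAP kinase phosphatase Dusp2 (0.76) and SHP-2, gene Ptpn11 (0.70), beside Nck2 (0.88) among positive ones. The list counts Ptpn11 as a negative regulator only, so any activating role is left out of these counts. The lower gene was Fyb (-0.36), the ADAP adaptor that binds SLP-76. Dusp5 passed in both tissues in every fit that left out 1 array, and in thymus each of the other genes named lost its call in at least 1 fit without a perinate array. Among tagged cells Lax1 passed in 1 of 6 such fits and Txk in 4 of 6. Nck2, Grb2, Ubash3b and Ptpn7 passed in all 6. With the interquartile range covariate, Ubash3b alone of the genes named for tagged cells kept its call (0.59, adjusted p = 0.047). Nck2 was then at 0.72 (adjusted p = 0.0589) and Dusp5 at 0.64 (adjusted p = 0.0776). The part of the proliferation genes in these calls was not tested.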

How the data were processed

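Labelled RNA of 18 samples was read on Mouse Gene 1.0 ST microarrays from Affymetrix, and the authors deposited 1 table of normalized intensities on a linear scale, for which the submitters' processing notes name RMA and Affymetrix Power Tools. Versions, the arrays normalized together and a genome build are not given in the sources used here. From the deposited intensity values, log2 was taken here for all fits, and values ran from 6.81 to 18850. Of 24922 probe sets, 21425 had 1 symbol, 1399 several and 2098 none, and a gene with several probe sets was read from the one with the highest mean. Genes whose highest group mean reached the median of all values (7.05 on the log2 scale) were tested: 10350 in the fit of 12 spleen arrays, 10650 in that of 6 thymus arrays and 10889 in that of 18, which gave the difference between tissues. limma 3.58.1 in R 4.3.3 was used (lmFit and eBayes, two-sided, Benjamini-Hochberg adjustment, threshold 0.05), without a replicate block, and was tested on simulated data. Figures were drawn with matplotlib 3.10.9.

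The members, the pathway list and the marker lists were chosen with earlier results of these data known. Every member is accounted for by its values or a range, arrays are given singly for members past the threshold and for Cd3e, Zap70, Lat, Ptpn22, Ptpn6, Cd5 and Ubash3a whatever their result (Cd3d and Cd4 were added after their values were seen), and other pathway genes are named up to 6 in each direction per comparison. Alternatives were quantile normalization, median centring, no filter, the mean of probe sets, a trended robust prior, array weights, the interquartile range as a covariate, all 18 arrays, a minimum of 1.5-fold, a replicate block and leaving out each array. Deviations from group means, over all genes, correlated between untagged perinate-treated and adult-treated arrays of the same number (r = 0.626, 0.144 and 0.466 for replicates 3, 4 and 5). Between arrays of unlike number in these groups r ran from -0.641 to 0.303, the latter above the value for replicate 4. No label states a pairing, so the main fits left these arrays unpaired and the block was an alternative only. Protein sequences and their motifs were not analysed here.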

Additional observations from a re-analysis of the deposited data

Results flagged for a closer look

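Effects under the same contrast that differed between conditions by limma's test of the difference were found for 1 of the 34 members and 5 other genes of the pathway. For tagged minus untagged differences that is 2.94% of members and 1 of 50 pathway genes (2%), against 4.89% of all genes. For spleen minus thymus it is 0 of 34 members and 4 of 50 pathway genes (8%), against 6.46% of all genes. Grap2 had a tagged difference (perinate-tagged minus adult-tagged) of -0.69, against an untagged difference of 0.20, and the first minus the second was -0.90 (adjusted p = 0.0187). It passed in 19 of 22 alternatives, with values of -1.03 to -0.73, and lost its call with the replicate block (-0.76, adjusted p = 0.105) and without adult-tagged replicate 1 or perinate-tagged replicate 5.

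Dusp5, the ERK phosphatase, had a tagged difference minus untagged difference of 0.89 (adjusted p = 0.0289). It passed in 13 of 22 alternatives, among them 6 of the 12 fits that left out 1 array. It lost its call with the replicate block (0.67, adjusted p = 0.151), with no filter and with the interquartile range covariate (0.76, adjusted p = 0.0544).

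For the other 4 genes the spleen difference (perinate-tagged minus adult-tagged) departed from the thymus difference (perinate minus adult). Txk, the Tec family kinase, was lower in perinate-tagged spleen cells, and its spleen minus thymus value was -1.13 (adjusted p = 0.00681). Its levels were 9.47, 9.79 and 9.71 in perinate-tagged against 10.38, 10.19 and 10.37 in adult-tagged samples, and 10.70, 10.38 and 10.22 in perinate thymus against 10.12, 9.79 and 9.97 in adult thymus. Every perinate array lay below the adult ones in spleen and above them in thymus.

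Ptpn7, the ERK-binding phosphatase, had a value of 0.92 (adjusted p = 0.00108). Its levels were 11.12, 10.99 and 11.02 in perinate-tagged against 10.27, 10.46 and 10.49 in adult-tagged samples, and 10.52, 10.45 and 10.53 in perinate thymus against 10.70, 10.82 and 10.83 in adult thymus. Txk and Ptpn7 passed in 21 of 21 alternatives.

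Ubash3b had 0.77 (adjusted p = 0.0148), and passed in 19 of 21, not with the replicate block (0.70) or with centring. Tec, a kinase that phosphorylates phospholipase C gamma, had 0.82 (adjusted p = 0.0148), passed in 18 of 21, and lost its call with the replicate block (0.76), with centring and without adult thymus replicate 3. Tissue, sex, age, sorter, reporter and tamoxifen differ together in these 4 results and cannot be told apart.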

How the results depend on the processing

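Counts of the 34 members past the threshold were set against 7 in the tagged comparison, 0 in the untagged one, 1 for the difference between them, 1 and 0 for tagged against untagged cells after perinate and adult tamoxifen, 5 in thymus and 0 for spleen minus thymus. In the tagged comparison the count was 10 with array weights (Cd3d, Zap70 and Tespa1 added), 4 with no filter, 3 with a 1.5-fold minimum, 1 with the interquartile range covariate and 0 with the replicate block, and 2 to 7 when 1 array was left out. For tagged minus untagged differences it was 2 with quantile normalization, 2 with array weights, 0 with the replicate block (Grap2 at -0.76) and 0 to 2 with 1 array left out. For perinate tamoxifen it was 3 with quantile normalization, 0 with centring, 0 with no filter, 0 with a 1.5-fold minimum, 2 with the trended robust prior, 12 with array weights, 2 with the interquartile range covariate, 2 with the replicate block (Ptpn22 and Cblb) and 0 to 1 with 1 array left out. For adult tamoxifen it was 0 to 3 with 1 array left out, the 3 without untagged adult-treated replicate 3. In thymus it was 3 with centring, 1 with no filter, 13 with array weights, 9 with all 18 arrays, 3 with the replicate block, 1 with a 1.5-fold minimum and 0 to 9 with 1 array left out. For spleen minus thymus it was 2 with quantile normalization, 2 with the trended robust prior, 10 with array weights, 5 with the interquartile range covariate and 0 to 2 with 1 array left out. Zap70 in thymus, 0.21 and not past the threshold, was -0.425 with the interquartile range covariate. The cause of these changes was not tested, apart from fewer arrays and, with no filter, more genes tested. Shares of all genes that passed in the same alternatives are not given, here or above. These counts therefore do not show whether members changed more or less often than other genes.

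Of the members that passed, none changed sign under any alternative. The 112 values of the 7 tagged calls kept their call in 64, and the 80 values of the 5 thymus calls in 41. The replicate block gave 0 members in the untagged comparison. Tagged perinate and tagged adult arrays share 1 replicate number, and adult-tagged and untagged adult-treated arrays share 1. Perinate-tagged and untagged perinate-treated arrays share 2 (r = -0.110 and 0.001), and thymus arrays share 3 (r = -0.053, 0.058 and 0.121), so numbers there were not taken to pair samples, and the blocked counts above describe a shared number only. The 3 arrays a group limit every comparison and the deposited values carry no background measure.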
